A study of Mus musculus with 23 samples.

Results

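The loss of the remaining copy of Notch1 was examined in oral tumours of the type labelled KR, by comparing 4 KR-N-/- tumours, without Notch1, with 5 KR-N+/- tumours, which keep 1 copy of the gene. The tumours were taken by their group labels, and these 9 arrays are part of a set of 23. In that set RNA of mouse oral tumours (strain C57BL/6, 21 days of growth) was hybridized to Illumina MouseRef-8 v2 bead arrays, 1 array per tumour. Besides the KR-N+/- and KR-N-/- groups it holds 5 KHR, 4 KHR-N+/- and 5 KHR-N-/- tumours, of a second type labelled KHR. The labels do not expand the codes KR and KHR, and KR tumours with intact Notch1 were not analysed here, so every KR tumour described below carries at least 1 disrupted Notch1 allele. The labels also do not say which cell type lost the gene, how tumours were started, or whether 2 tumours ever shared an animal. Each p-value therefore reflects only the spread within the groups of all 23 tumours, the KHR tumours included.

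Notch1 encodes a receptor that is cleaved after contact with Jagged or Delta ligands on a neighbouring cell. Its intracellular part then enters the nucleus, binds the DNA-binding protein RBPJ and switches on genes such as Hes and Hey family members. In stratified epithelia such as skin and oral mucosa, Notch signalling is known for moving keratinocytes from the proliferating basal layer into the differentiating suprabasal layers.

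The 9 arrays carried the markers of a stratified squamous epithelium. All 8 keratinocyte markers were measured and detected on 9 of 9 arrays, with Krt14 between 13.95 and 14.61 and Krt5 between 12.05 and 13.08 on the log2 scale of normalized intensity used throughout. The mean raw intensity of an array ran from 142.4 to 360.4 in KR-N+/- and from 149.8 to 260.9 in KR-N-/-, with 10353 to 12415 and 11162 to 12181 probes detected. Correlations over the 9732 tested genes ran from 0.979 to 0.991 within the KR groups (16 pairs) and from 0.959 to 0.981 between them (20 pairs), and no 2 KR arrays were identical. In all, 1581 genes (16.2%) differed between the groups at an adjusted p under 0.05 in the limma fit. Of these, 936 (9.62%) were higher and 645 (6.63%) lower in KR-N-/-, and 188 (1.93%) differed by a log2 value of at least 1, 75 of them higher and 113 lower. At an unadjusted p under 0.05 the count was 2986. The median difference of all tested genes was 0.04. For 1798 genes (18.5%) the 2 groups did not overlap. The number of calls depended on how the arrays were brought to a common scale. With each array shifted to a common median in place of quantile normalization, 3 genes passed (AA467197, Fa2h and Col26a1), 539 had an unadjusted p under 0.05 and all 1581 kept their direction, while the median SE of a gene rose from 0.14 to 0.275. Without KR-N-/- replicate 2 the count was 897, and without the KR-N+/- arrays of lowest and highest raw intensity (replicates 1 and 2) it was 958. Of the 118 passing genes that were named by rule, 94 also passed in each of the 9 fits that left out 1 KR array. The other 24 passed in 1 (Dct, Mmp9, Pkp1 and Robo4), 2 (Cldn23), 3 (H2-Q8, Hbegf, Krt26, Krt31, Krtap13-1 and Tnc), 4 (Aplnr and Dsg3), 5 (Pfkfb4), 6 (Fen1, Kif23, Krt79, Spen and Uhrf1), 7 (Cdkn1c, Fzd10 and Lcn2) or 8 (Elf3 and Grhl1) of these fits.

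**Figure D1:**
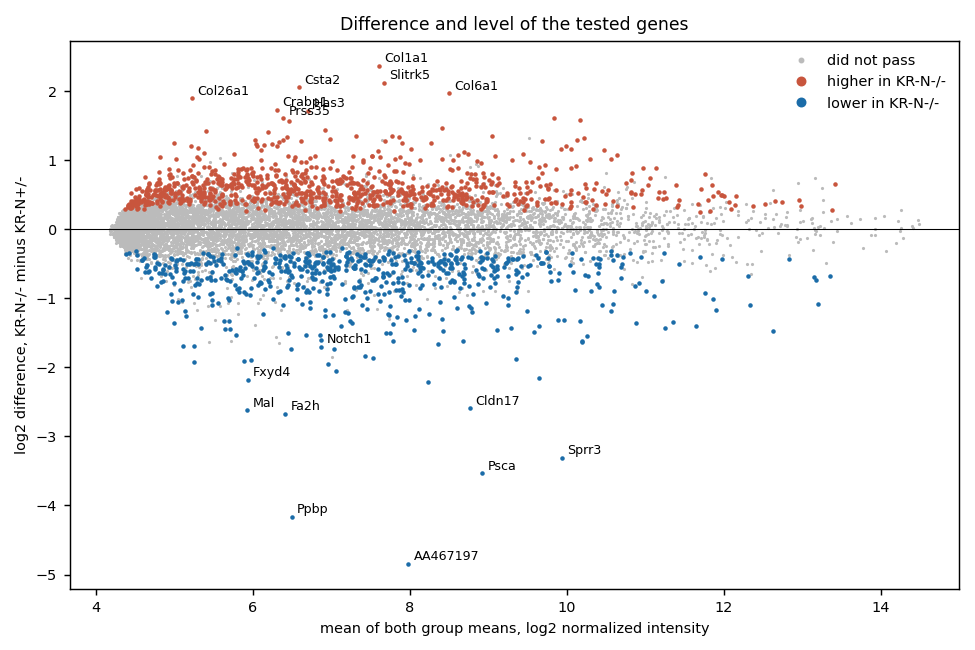
Each point is 1 of the 9732 tested genes, with the mean of both group means on the horizontal axis (log2 normalized intensity) and the log2 difference, KR-N-/- minus KR-N+/-, on the vertical axis. Genes that passed at an adjusted p under 0.05 are coloured by direction (936 higher, 645 lower); the falls reach 4.84 in size and the rises 2.37.

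Notch1 itself was lower on every KR-N-/- array. Notch1 read 6.08, 6.52, 5.89 and 5.61 in the KR-N-/- tumours and 7.87, 7.60, 8.13, 7.44 and 7.57 in the KR-N+/- tumours. No KR-N-/- array reached the lowest KR-N+/- array. Notch1 fell by 1.70 (SE 0.27, adjusted p = 0.000711), from a mean of 7.72 ± 0.28 (SD, n = 5) to 6.02 ± 0.38 (SD, n = 4), and its probe was still detected on 4 of 4 KR-N-/- arrays. With the arrays shifted to a common median the difference was -1.58 with an adjusted p of 0.173. Notch1 has a single probe on the array, whose place relative to the deletion is not stated in the labels or files.

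Of the other receptors and ligands, 5 were measured and 1 passed. Jag2, which encodes a Notch ligand of the Jagged family, was higher in every KR-N-/- tumour. Levels of Jag2 were 5.88, 6.11, 6.05 and 5.75 in KR-N-/- and 5.41, 5.59, 5.37, 5.14 and 4.81 in KR-N+/-. The groups did not overlap, and Jag2 rose by 0.68 (SE 0.15, adjusted p = 0.00482). The KR-N+/- arrays gave 6.56, 6.38, 6.33, 6.23 and 6.24 for Notch4 and the KR-N-/- arrays 7.13, 6.98, 7.14 and 7.07. Notch4, a receptor of endothelial cells, thus also read higher on each KR-N-/- array, but its difference of 0.73 (SE 0.27, adjusted p = 0.0615) did not pass. The receptor Notch3 (-0.17, adjusted p = 0.244) and the ligands Jag1 (-0.13, adjusted p = 0.643) and Dll1 (-0.04, adjusted p = 0.906) did not pass either, and Dll1 was detected on only 2 arrays of each group.

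None of the 5 measured members of the Notch target list passed, 0 higher and 0 lower. The mean level of the list was lower in KR-N-/- without overlap (7.83 to 7.95 against 8.04 to 8.19), with a median difference of -0.17. Means without overlap were found for many of the 46 gene lists. Among these were the stress keratins, with 0 of 7 passing (9.14 to 9.32 against 9.39 to 9.49). In KR-N-/- tumours Hes1 stood at 7.19, 6.97, 7.12 and 6.84, and in KR-N+/- tumours at 7.45, 7.71, 7.67, 7.41 and 7.22. Hes1, a transcriptional repressor and a classical Notch target, lay lower on every KR-N-/- array, with a difference of -0.46 (SE 0.20, adjusted p = 0.124). Across the 4 KR-N-/- arrays Nrarp came to 9.98, 9.86, 9.82 and 9.81, against 9.84, 10.34, 10.52, 10.17 and 10.55 across the 5 KR-N+/- arrays. Nrarp, which encodes a feedback inhibitor of the pathway, gave -0.42 (SE 0.16, adjusted p = 0.0699), and its groups overlapped by 1 KR-N+/- array. Hey1 gave 0.12 and the cell cycle inhibitor Cdkn1a -0.06 (adjusted p = 0.641 and 0.837). Among 28 measured genes of Notch processing and modulation 3 rose and 1 fell, or 14.3% that passed against 16.2% of all tested genes. The rises were in Dtx3 and Dtx2, of the Deltex family of ubiquitin ligases, by 1.06 and 0.53 (0.18 and 0.49 on the other probes of Dtx2), and in Spen, a corepressor of RBPJ, by 0.68. The fall was in Ep300, a histone acetyltransferase and coactivator, by 0.43, and it was lost without KR-N+/- replicate 4 or 5 or KR-N-/- replicate 2 or 4. Without KR-N+/- replicate 2 the list had 2 falls.

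AA467197, the mouse counterpart of the human gene NMES1, which encodes a small mitochondrial protein of squamous mucosa, had the largest difference of all tested genes. AA467197 levels ran 10.42, 10.54, 9.98, 10.00 and 11.08 in KR-N+/- and 5.91, 4.84, 6.53 and 4.96 in KR-N-/-. The KR-N-/- arrays spread from 4.84 to 6.53, and the highest of them lay far below the lowest KR-N+/- array, at 9.98. AA467197 fell by 4.84 (SE 0.51, adjusted p = 9.27e-06), a 28.7-fold decrease. Values of 8.44, 7.16, 6.87 and 6.15 for Psca in KR-N-/- stood against 10.82, 10.56, 10.67, 10.16 and 11.23 in KR-N+/-. Psca, a membrane-anchored surface protein, fell by 3.53 (SE 0.58, adjusted p = 0.000747), and KR-N-/- replicate 1 was the highest of its group. For Sprr3 the values were 11.72, 10.86, 11.68, 11.55 and 12.15 in KR-N+/- and 8.41, 7.61, 9.15 and 7.97 in KR-N-/-. Sprr3, a cornified envelope precursor of oral and oesophageal epithelium, fell by 3.31 (SE 0.50, adjusted p = 0.000455). The groups overlapped in none of these genes.

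Ppbp read 4.79, 4.32, 4.44 and 4.11 in the KR-N-/- tumours and 10.18, 9.63, 6.94, 6.74 and 9.41 in the KR-N+/- tumours. Ppbp, which encodes a platelet chemokine that attracts neutrophils, fell by 4.17 (SE 1.01, adjusted p = 0.00791), and its other probe gave -4.09. The KR-N+/- tumours fell into a higher set of 3 and a lower set of 2 for this gene, and the call was lost without replicates 1 and 2 of the higher set (-3.28, adjusted p = 0.0696). All KR-N+/- tumours lay above the KR-N-/- tumours, where it was detected on 2 of 4 arrays. Of the 8 measured platelet and megakaryocyte markers Ppbp alone passed, with Pf4 at 0.01 and Gp9 at -0.28.

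Levels of Fa2h were 4.80, 4.35, 4.84 and 6.31 in KR-N-/- and 7.83, 7.47, 7.67, 8.62 and 7.14 in KR-N+/-. Fa2h, the enzyme that adds a hydroxyl group to fatty acids of skin lipids, fell by 2.67 (SE 0.38, adjusted p = 0.000205). The KR-N+/- arrays gave 9.86, 9.93, 9.82, 10.12 and 10.57 for Cldn17 and the KR-N-/- arrays 7.82, 7.27, 7.64 and 7.13. The tight junction gene Cldn17 fell by 2.59 (SE 0.45, adjusted p = 0.00111). In KR-N-/- tumours Krt4 stood at 8.17, 8.06, 9.31 and 8.73, and in KR-N+/- tumours at 10.90, 10.19, 11.11, 10.54 and 10.88. The mucosal keratin gene Krt4 fell by 2.16 (SE 0.54, adjusted p = 0.00966). In all 3 genes the KR-N-/- arrays lay below every KR-N+/- array, and Fa2h was detected on 3 of 4 of them.

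The rest of the 15 largest falls ran from 1.89 to 2.62 and held genes of several kinds. Mal, a protein of membrane rafts, fell by 2.62, although its other probe gave -1.29 and did not pass. Fxyd4, a regulator of the sodium pump, fell by 2.18. The cytochrome P450 gene Cyp2f2 fell by 2.06, and Ada, which encodes adenosine deaminase, by 1.94. Pglyrp4, a protein that binds bacterial cell walls, fell by 1.91 (-0.60 on 1 of its other probes, which did not pass), Ankk1, a kinase with ankyrin repeats, by 1.90 and the keratin gene Krt23 by 1.89. Pbp2, of the phosphatidylethanolamine-binding protein family, was detected on 0 of 4 KR-N-/- arrays and was at least 3.29-fold lower there (adjusted p = 0.00575). The groups overlapped in none of these 8 genes.

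**Figure D2:**
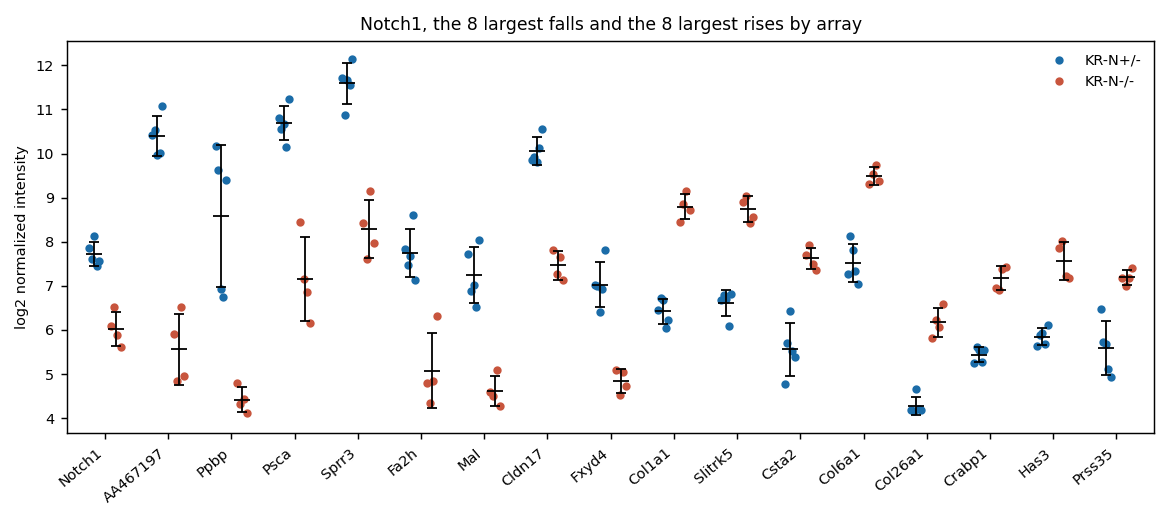
Log2 normalized intensity of Notch1, the 8 genes with the largest falls and the 8 with the largest rises among those named by rule. Points are arrays (5 KR-N+/- in blue, 4 KR-N-/- in red) and bars the mean and SD; the groups do not overlap in any of the 17 genes, and Ppbp has the widest spread, 6.74 to 10.18 in KR-N+/-.

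Most lists of the epithelial surface held falls and few or no rises, and in most of them the larger part of the members did not pass. The lists were chosen with earlier results of these data known. Their counts beside the share of all tested genes are therefore descriptions and no test. Of 21 measured kallikreins, Spink inhibitors and surface proteases, which cut the links between cells of the outermost layers or restrain that cutting, 14 fell and 0 rose, against 6.63% lower and 9.62% higher among all tested genes. The median difference of the list was -1.04. Across the 4 KR-N-/- arrays Klk10 came to 9.47, 9.34, 9.76 and 8.95, against 10.95, 10.94, 10.77, 11.27 and 11.09 across the 5 KR-N+/- arrays. Klk10 fell by 1.63 (SE 0.42, adjusted p = 0.0112). Tmprss11a levels ran 9.23, 9.37, 8.98, 8.97 and 9.42 in KR-N+/- and 7.68, 6.79, 8.14 and 7.53 in KR-N-/-. Tmprss11a, a membrane-bound serine protease of squamous epithelium, fell by 1.66 (SE 0.31, adjusted p = 0.0016), and Prss22, a further serine protease, fell by 1.61. The mean level of the list was 7.74 ± 0.12 (SD, n = 4) in KR-N-/- and 8.72 ± 0.14 (SD, n = 5) in KR-N+/-, with no overlap. St14, Spint1 and Spint2, a membrane protease and its inhibitors, gave -0.02, -0.43 and -0.07 and did not pass.

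Of 44 measured cornified envelope precursors and crosslinkers 13 fell and 0 rose, with a median of -0.52. Values of 10.03, 9.44, 9.26 and 8.83 for Lce3a in KR-N-/- stood against 10.89, 10.33, 11.31, 10.98 and 11.49 in KR-N+/-. Lce3a, a late cornified envelope gene, fell by 1.62 (SE 0.29, adjusted p = 0.00125). For Cnfn the values were 12.04, 11.70, 12.06, 11.86 and 12.46 in KR-N+/- and 10.72, 10.69, 10.83 and 10.49 in KR-N-/-. Cnfn, which encodes cornifelin, fell by 1.34 (SE 0.25, adjusted p = 0.00141). Scel and Ppl, which encode the envelope proteins sciellin and periplakin, fell by 1.31 and 0.89. The late markers Lor (-0.03), Krtdap (0.00) and Casp14 (0.00) did not pass, nor did the crosslinking enzymes Tgm1 (-0.34) and Tgm3 (0.23). Genes of the Sprr2 and Lce families are close copies of each other, and how far their probes cross-hybridize was not tested.

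Among 12 suprabasal keratins 4 fell and 0 rose. Krt23 read 8.35, 7.84, 8.84 and 8.62 in the KR-N-/- tumours and 10.30, 9.81, 10.40, 10.39 and 10.61 in the KR-N+/- tumours. Krt23 fell by 1.89 (SE 0.33, adjusted p = 0.00116), and Krt79, a keratin of hair follicle ducts, fell by 1.49. Krt13, the partner of Krt4 in oral mucosa, fell by 1.48. The skin keratins Krt1 (-0.05) and Krt10 (0.14) and the 7 measured stress keratins did not pass. Krt6a, one of them, gave -0.90 (adjusted p = 0.139) on its brightest probe, which stands for the gene, while its other probe passed (-1.16, adjusted p = 0.0461 over probes). Of 21 measured hair keratins and associated proteins 4 fell, with a median of -0.87, but the groups overlapped on their mean level, which spread from 4.71 to 5.82 in KR-N-/- and from 5.28 to 6.59 in KR-N+/-. Krtap13-1, a hair keratin-associated protein, fell by 1.44 (SE 0.49, adjusted p = 0.0473) with overlapping groups. The hair count was 1 or 2 without any one of KR-N+/- replicates 1, 3 and 4 or KR-N-/- replicates 1, 2 and 3.

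Of 34 measured genes of barrier lipid synthesis 8 fell and 0 rose, with the lipoxygenase Alox12 and the fatty acid elongase Elovl3 falling by 1.12 and 0.93 after Fa2h, and the count was 5 without KR-N-/- replicate 2. Of 16 tight and gap junction genes 4 fell and 0 rose, among them Cldn1 by 1.10 and the other claudin gene Cldn23 by 0.67 besides Cldn17, and the count was 2 without KR-N+/- replicate 5, KR-N-/- replicate 2 or KR-N-/- replicate 4. Of 12 desmosome genes Dsg3, a desmosomal cadherin, fell by 0.84 and Pkp1, a plaque protein, rose by 0.26, which is 16.7% of the list against 16.2% of all tested genes, and the mean level of the list overlapped between the groups. Of 28 mucosal surface proteins 9 fell and 0 rose, and Ceacam1, an adhesion molecule detected on 0 of 4 KR-N-/- arrays, was at least 2.01-fold lower there (adjusted p = 0.0138), although its other probe gave -0.31.

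Of 10 measured serpins 3 fell and 0 rose, namely Serpinb11 by 1.41, Serpinb1a by 1.02 and Serpinb3a by 0.97, the last of which belongs to a group of near-identical copies. Of 20 antimicrobial proteins and alarmins 9 fell and 1 rose. Levels of S100a7a were 6.79, 6.77, 6.74 and 6.09 in KR-N-/- and 8.31, 8.35, 8.34, 8.24 and 9.10 in KR-N+/-. S100a7a, the mouse psoriasin relative, fell by 1.87 (SE 0.34, adjusted p = 0.00118). The KR-N+/- arrays gave 13.61, 14.19, 13.65, 13.33 and 13.95 for S100a8 and the KR-N-/- arrays 13.27, 12.45, 12.73 and 12.18. S100a8, a calcium-binding alarmin of neutrophils and stressed keratinocytes, fell by 1.09 (SE 0.17, adjusted p = 0.000711), and its partner S100a9 fell by 1.09 with 1 KR-N-/- array inside the KR-N+/- range. Lcn2, which binds bacterial siderophores, fell by 1.51, and the beta-defensins Defb6, Defb14 and Defb4 by 1.36, 1.17 and 0.89. Saa3, an acute phase protein, rose by 1.09. This call was lost without KR-N+/- replicate 1, 3 or 4 or KR-N-/- replicate 2 or 3. It was also lost on the authors' processed values, without background correction, with an offset of 50 and with median scaling. The same held without the detection filter, with the column run term and with the trend and robust options. It held too with the fibroblast covariate and without both KR-N+/- arrays of extreme intensity. The other neutrophil markers did not pass, with Csf3r at 0.11 and Cxcr2 at -0.06.

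Lists of regulators of epithelial differentiation and growth held calls in both directions. Of 26 epithelial transcription factors 4 fell and 1 rose, or 19.2% that passed against 16.2% of all tested genes. In KR-N-/- tumours Elf5 stood at 4.45, 4.33, 4.64 and 4.20, and in KR-N+/- tumours at 6.50, 5.84, 6.00, 5.41 and 6.74. Elf5, an ETS factor, fell by 1.69 (SE 0.36, adjusted p = 0.00337), but its other probe gave -0.31 and it was detected on 1 of 4 KR-N-/- arrays. Elf3, a factor of the same family, and Grhl1, of the Grainyhead family, fell by 0.78 and 0.68, Klf3 fell by 0.63 and Klf5 rose by 0.54. The other probe of Grhl1 gave -0.50 and did not pass. Without KR-N-/- replicate 4 the falls numbered 2, and the rises 0 without it or KR-N-/- replicate 2 and 2 without KR-N-/- replicate 3. Of 22 retinoid genes 3 fell and 3 rose, or 27.3% that passed. Across the 4 KR-N-/- arrays Aldh1a3 came to 5.73, 5.71, 5.49 and 5.56, against 7.27, 7.40, 7.27, 6.96 and 7.89 across the 5 KR-N+/- arrays. Aldh1a3, which makes retinoic acid, fell by 1.74 (SE 0.21, adjusted p = 3.03e-05). Crabp1 levels ran 5.26, 5.61, 5.54, 5.26 and 5.54 in KR-N+/- and 6.96, 6.91, 7.38 and 7.43 in KR-N-/-. The retinoic acid-binding gene Crabp1 rose by 1.73 (SE 0.33, adjusted p = 0.0016), while its relative Crabp2 fell by 1.09.

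Of 9 genes of the EGF receptor family and its ligands 2 fell, both ligands, Btc by 1.43 and Hbegf by 0.76, with 1 fall without KR-N+/- replicate 2, 3 or 5 or KR-N-/- replicate 2, 3 or 4. In the Ras-ERK list (23 measured) the transcription factor gene Egr2, the phosphatase gene Dusp4 and Emp1 fell by 1.33, 1.03 and 0.75, and Etv4 rose by 1.14, with 2 rises without KR-N+/- replicate 2 and 3 without KR-N-/- replicate 3. The other probe of Dusp4 gave 0.02. The EGF receptor list had 22.2% and the Ras-ERK list 17.4% that passed, against 16.2% of all tested genes. Dusp6 (0.00) and Spry4 (-0.10), 2 feedback inhibitors of the pathway, did not pass.

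**Figure D3:**
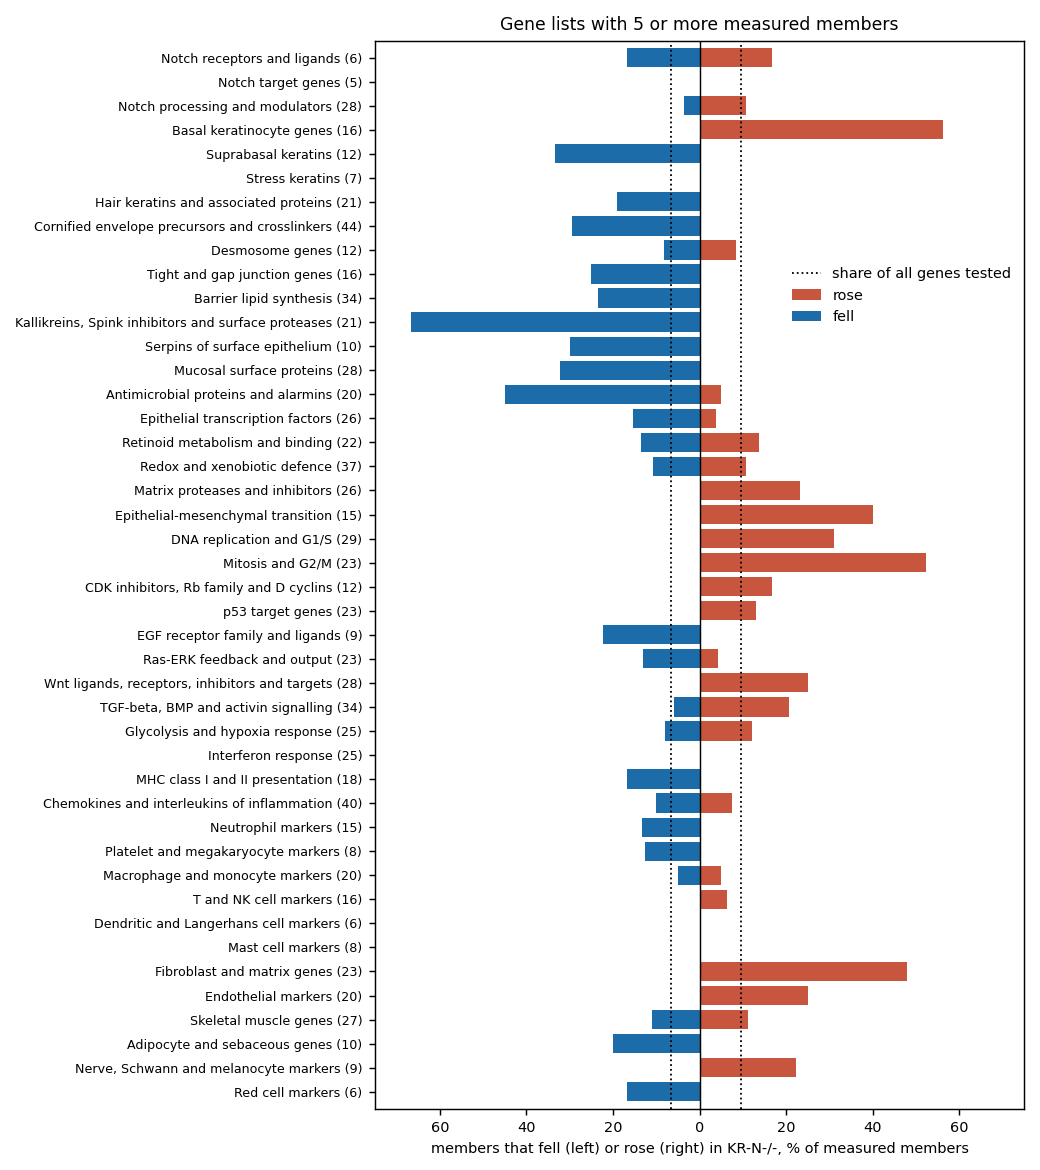
Share of the measured members of each gene list that fell (blue, to the left) or rose (red, to the right) in KR-N-/- tumours, in percent, with the number of measured members in brackets. Dotted lines mark the share among all tested genes (6.63% lower, 9.62% higher). The surface protease list reaches furthest to the left (14 of 21) and the basal keratinocyte list furthest to the right (9 of 16). The lists were chosen with earlier results of these data known, so the shares carry no test.

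Many of the basal layer genes rose in the KR-N-/- tumours, in a number that depended on single arrays. Of 16 measured basal keratinocyte genes 9 rose and 0 fell, with a median of 0.59, and the mean level of the list was 9.16 ± 0.11 (SD, n = 4) against 8.50 ± 0.13 (SD, n = 5), with no overlap. The count was 6 without KR-N+/- replicate 1 or 4 or KR-N-/- replicate 2. It was 7 without KR-N+/- replicate 3 or 5 or KR-N-/- replicate 1, 8 without KR-N-/- replicate 3 or 4 and 11 without KR-N+/- replicate 2. Values of 10.83, 10.95, 10.68 and 10.67 for Lamb3 in KR-N-/- stood against 9.29, 9.72, 9.73, 9.25 and 9.45 in KR-N+/-. Lamb3, a chain of the basement membrane protein laminin-332, rose by 1.29 (SE 0.26, adjusted p = 0.00269). For Itga3 the values were 6.65, 7.52, 6.98, 6.79 and 7.31 in KR-N+/- and 8.35, 8.67, 8.31 and 7.96 in KR-N-/-. Itga3, an integrin that binds this laminin, rose by 1.27 (SE 0.30, adjusted p = 0.00673), and Itgb4, the integrin of hemidesmosomes, rose by 1.15. Col17a1 and Plec, further hemidesmosome components, rose by 0.88 and 0.89. The basal keratins Krt5 (0.57), Krt14 (0.08) and Krt15 (0.69) and the master regulator Trp63 (0.45) did not pass.

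The largest rises were in collagens and a mixed set of other genes. Col1a1 read 8.45, 8.86, 9.14 and 8.72 in the KR-N-/- tumours and 6.46, 6.72, 6.67, 6.04 and 6.23 in the KR-N+/- tumours. Col1a1, a chain of type I collagen, rose by 2.37 (SE 0.44, adjusted p = 0.00156). Levels of Slitrk5 were 8.91, 9.05, 8.42 and 8.56 in KR-N-/- and 6.67, 6.79, 6.70, 6.09 and 6.82 in KR-N+/-. Slitrk5, a transmembrane protein best known from neurons, rose by 2.12 (SE 0.29, adjusted p = 0.00019). The KR-N+/- arrays gave 4.77, 5.71, 6.42, 5.53 and 5.39 for Csta2 and the KR-N-/- arrays 7.69, 7.92, 7.51 and 7.37. Csta2, a cysteine protease inhibitor of the stefin A family, which has close copies in the mouse, rose by 2.06 (SE 0.38, adjusted p = 0.00144). Each of these 3 genes was higher on every KR-N-/- array, and KR-N+/- replicate 3 read highest of its group for Csta2.

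In KR-N-/- tumours Col7a1 stood at 11.16, 10.89, 11.01 and 10.76, and in KR-N+/- tumours at 9.07, 9.55, 9.52, 9.29 and 9.46. Col7a1, the collagen of the fibrils that anchor the epidermis, rose by 1.58 (SE 0.29, adjusted p = 0.00149), and its other probe gave 0.82. Across the 4 KR-N-/- arrays Prmt1 came to 9.73, 11.03, 10.98 and 10.83, against 8.85, 9.18, 9.13, 8.75 and 9.26 across the 5 KR-N+/- arrays. Prmt1, an arginine methyltransferase, rose by 1.61 (SE 0.28, adjusted p = 0.00115), with KR-N-/- replicate 1 lower than the others of its group. Has3 levels ran 5.64, 5.88, 5.93, 5.69 and 6.11 in KR-N+/- and 7.86, 8.01, 7.23 and 7.17 in KR-N-/-. Has3, a hyaluronan synthase, rose by 1.72 (SE 0.34, adjusted p = 0.00215). The remaining members of the 15 largest rises were Col6a1 (1.97), Col26a1 (1.90), Prss35 (1.61), Ddah1 (1.57), Col5a1 (1.47), Kcnh1 (1.44), Spo11 (1.42) and Col6a2 (1.40), besides Crabp1. Col26a1 was detected on 1 of 5 KR-N+/- arrays, and the groups overlapped in none of these 8 genes.

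Fibroblast and matrix genes were raised as a list, with 11 of 23 measured members higher and 0 lower and a median of 0.65. Sparc, a secreted matrix glycoprotein, and Thy1 and Pdgfrb, a surface protein and a growth factor receptor of stromal cells, rose by 1.27, 1.09 and 1.02. Other defining fibroblast genes did not pass, with Pdgfra at 0.29, Lum at 0.31, Dcn at -0.51 and Dpt at 0.02. Every KR-N-/- array had a higher mean over this list (7.28 to 7.47) than every KR-N+/- array (6.65 to 6.92). Endothelial markers were counted in the same way, with 5 of 20 higher and 0 lower and list means of 6.22 to 6.42 against 5.64 to 6.00, led by the angiopoietin receptor gene Tek (0.82), Robo4 (0.77) and Aplnr (0.76). The endothelial count fell to 2 or 3 in 8 of the 9 fits without a single array. Pecam1 and Kdr, defining markers of these cells, gave 0.43 and 0.10 and did not pass. In bulk tumour RNA more or fewer cells of a type and more or less RNA per cell cannot be told apart.

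With the mean of the fibroblast and matrix list as a covariate, an alternative chosen after seeing the data, 18 genes passed and 1203 had an unadjusted p under 0.05. Among them were Notch1 (-1.98), AA467197 (-4.75), Fa2h (-2.59), Fxyd4 (-2.12), Aldh1a3 (-1.81), Col26a1 (1.44) and Kcnh1 (1.33). In that fit the median of the surface protease list was -0.16 and that of the basal keratinocyte list 0.38. Several lists with a median below 0 without the covariate lay above 0 with it. These were the cornified envelope (0.18), suprabasal keratins (0.15), barrier lipid synthesis (0.13) and mucosal surface proteins (0.01). The retinoid (0.09), interferon response (0.05), T and NK cell (0.04) and salivary gland (0.31) lists did so too. So did the single B and plasma cell gene (0.01). The fibroblast list mean separates the groups, so the covariate and the genotype overlap in what they carry. The part of the stromal level in the epithelial differences was not tested otherwise.

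**Figure D4:**
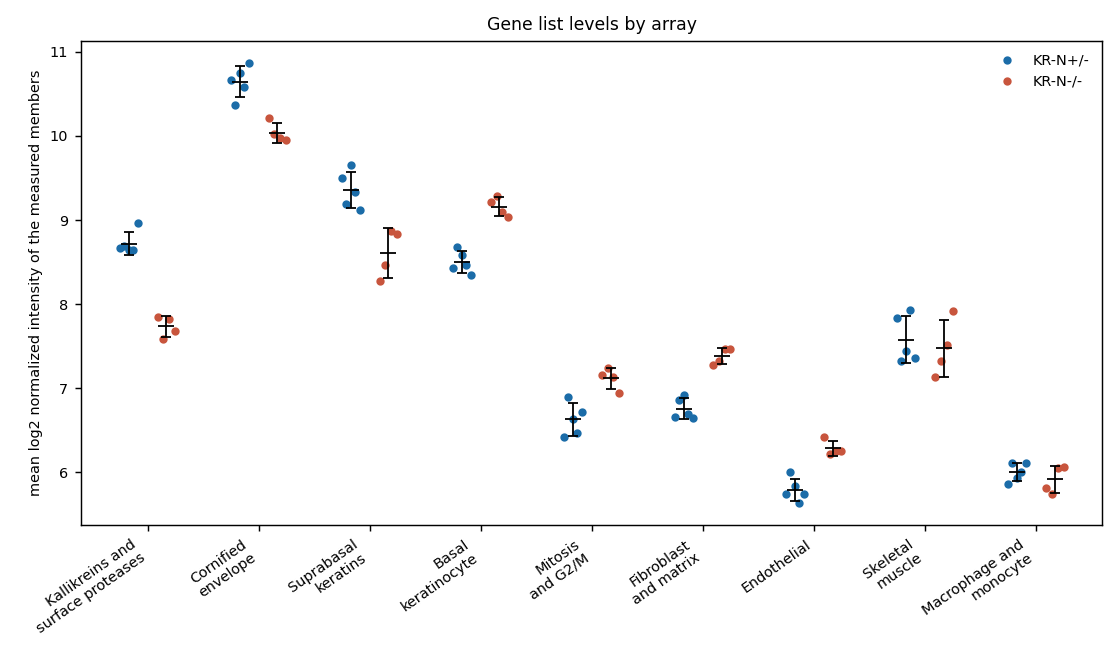
Mean log2 normalized intensity over the measured members of 9 gene lists, 1 point per array (KR-N+/- in blue, KR-N-/- in red), with the mean and SD of each group. The groups do not overlap for the surface protease, cornified envelope, suprabasal keratin, basal keratinocyte, mitosis, fibroblast and endothelial lists, and overlap for skeletal muscle and for macrophage and monocyte markers.

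Of 26 measured matrix proteases and inhibitors 6 rose and 0 fell. Values of 8.77, 9.15, 8.18 and 8.03 for Mmp9 in KR-N-/- stood against 6.84, 7.26, 8.02, 6.79 and 7.08 in KR-N+/-. The gelatinase gene Mmp9 rose by 1.33 (SE 0.46, adjusted p = 0.0492), and KR-N+/- replicate 3 lay just below the lowest KR-N-/- array. For Mmp11 the values were 4.24, 4.48, 4.58, 4.34 and 4.27 in KR-N+/- and 5.74, 5.74, 5.49 and 5.54 in KR-N-/-. Mmp11, or stromelysin 3, rose by 1.24 (SE 0.17, adjusted p = 0.00019) and was detected on 2 of 5 KR-N+/- arrays. Mmp3 read 7.55, 7.49, 7.86 and 7.65 in the KR-N-/- tumours and 5.62, 6.21, 6.43, 6.46 and 6.93 in the KR-N+/- tumours. Mmp3, a stromelysin, rose by 1.30 (SE 0.34, adjusted p = 0.011), with 0.29 and 1.00 on its other probes, neither of which passed. Mmp2 (0.15), Timp2 (0.08) and Plau (-0.21) did not pass.

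In the list of epithelial-mesenchymal transition 6 of 15 rose and 0 fell, led by the transcription factor gene Twist2 (1.05) and the matrix genes Tgfbi (1.01) and Tnc (1.00, with 0.90 and 0.14 on its other probes). Cdh1, the epithelial cadherin, gave -0.18, Vim 0.52, Snai1 0.30, Twist1 0.23 and Zeb1 0.28, and none of these passed. The others that rose were Cdh13, a cadherin, by 0.99, Lox, a collagen cross-linking enzyme, by 0.79 and the integrin gene Itga5 by 0.76. Without KR-N+/- replicate 4, KR-N-/- replicate 1 or KR-N-/- replicate 3 the count was 3.

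Part of the cell cycle genes rose. Of 23 measured genes of mitosis and G2/M 12 rose and 0 fell, with a median of 0.57, and of 29 genes of DNA replication and G1/S 9 rose and 0 fell, with a median of 0.33. Levels of Kif11 were 6.43, 6.61, 6.11 and 6.17 in KR-N-/- and 5.18, 6.00, 5.58, 5.32 and 5.57 in KR-N+/-. Kif11, a spindle motor, rose by 0.80 (SE 0.17, adjusted p = 0.00358). The KR-N+/- arrays gave 6.22, 6.64, 6.45, 6.55 and 6.70 for Aurka and the KR-N-/- arrays 7.46, 7.51, 7.06 and 7.10. The mitotic kinase gene Aurka rose by 0.77 (SE 0.18, adjusted p = 0.00555). In KR-N-/- tumours Lig1 stood at 8.10, 8.27, 7.99 and 7.76, and in KR-N+/- tumours at 6.55, 7.57, 7.59, 7.14 and 7.12. Lig1, which joins DNA fragments during replication, rose by 0.84 (SE 0.16, adjusted p = 0.00172), with 0.10, 0.73 and 0.13 on its other probes. KR-N+/- replicate 1 was the lowest array for each of these 3 genes. Fen1 and Uhrf1, a flap nuclease and a partner of DNA methylation, rose by 0.63 and 0.69. Cdk1 (-0.28), Top2a (0.17), Pcna (0.02) and Mcm4 (0.02) did not pass. Without the KR-N+/- arrays of lowest and highest raw intensity, replicates 1 and 2, the count for DNA replication was 4 and that for mitosis 10. The replication count was 3 without KR-N-/- replicate 2 and 5 without KR-N+/- replicate 4. Cdkn1c and Ccnd3, a cell cycle inhibitor and a D cyclin, rose by 0.68 and 0.61, the 2 rises among 12 genes of their list, with -0.03 on the other probe of Ccnd3 and a count of 1 without KR-N-/- replicate 3 or 4. Myc gave 0.10 and Ccnd1 0.58 without passing. In the list of Cdkn1c and Ccnd3 16.7% passed, against 16.2% of all tested genes.

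Among 28 genes of Wnt signalling 7 rose and 0 fell. Across the 4 KR-N-/- arrays Wnt3a came to 6.83, 6.85, 6.48 and 6.46, against 5.39, 5.55, 5.46, 5.14 and 5.70 across the 5 KR-N+/- arrays. Wnt3a, a ligand, rose by 1.21 (SE 0.19, adjusted p = 0.000711). The receptor gene Fzd10 rose by 0.84, although its other probes gave 0.13 and 0.11, and the secreted protein gene Dkk3 by 1.16. The pathway target and inhibitor Axin2 rose by 0.68. Of 34 genes of TGF-beta, BMP and activin signalling 7 rose and 2 fell. Fst levels ran 6.72, 6.77, 6.82, 6.30 and 6.57 in KR-N+/- and 8.16, 7.93, 8.09 and 7.79 in KR-N-/-. Fst, which encodes the activin antagonist follistatin, rose by 1.36 (SE 0.30, adjusted p = 0.0045). The ligand gene Tgfb3 rose by 1.29 and the protease gene Bmp1, which processes procollagen, by 1.09, with 0.82, 0.76 and -0.02 on the other probes of Bmp1.

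The immune lists differed from each other in their counts. The interferon response list gave 0 rises and 0 falls among 25 measured genes, with a median of -0.02. Its largest difference was that of Ifi27, at -0.42 (adjusted p = 0.213). Of 18 genes of MHC class I and II presentation 3 fell and 0 rose, or 16.7% that passed against 16.2% of all tested genes. The mean level of this list did not overlap between the groups (5.79 to 5.99 in KR-N-/- and 6.19 to 6.38 in KR-N+/-). Values of 9.57, 9.02, 9.61 and 9.02 for B2m in KR-N-/- stood against 10.51, 10.78, 10.68, 10.56 and 10.55 in KR-N+/-. B2m, the light chain of MHC class I, fell by 1.31 (SE 0.19, adjusted p = 0.00028), and its other probe gave -1.34. For H2-T23 the values were 8.74, 8.32, 8.30, 8.53 and 8.44 in KR-N+/- and 7.09, 7.08, 7.31 and 7.33 in KR-N-/-. The non-classical class I gene H2-T23 fell by 1.26 (SE 0.18, adjusted p = 0.00028). In both genes the groups lay well apart, while the classical genes H2-K1 (-0.24) and H2-D1 (-0.36) and the peptide transporter gene Tap1 (0.10) did not pass. Class I heavy chain genes share much of their sequence, so values of single members are uncertain.

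Of 40 chemokines and interleukins 4 fell and 3 rose, or 17.5% that passed. Besides Ppbp the falls were in the interleukin-1 family genes Il1a by 1.18 and Il1rn by 1.06 (-0.41 on its other probe), and in Il15 by 0.69. The rises were in Il11 by 0.84, Ccl21a by 0.82 and Tslp by 0.81. Of 20 macrophage and monocyte markers 1 fell and 1 rose, or 10% that passed against 16.2% of all tested genes. The rise was in Ly6c1 (adjusted p = 0.0069). Arg1 read 11.40, 11.22, 10.66 and 10.46 in the KR-N-/- tumours and 12.53, 12.21, 12.24, 12.21 and 12.53 in the KR-N+/- tumours. Arg1, an arginase that keratinocytes also express, fell by 1.41 (SE 0.31, adjusted p = 0.00474). Adgre1 (-0.10), Aif1 (-0.12) and C1qa (0.04), defining macrophage markers, did not pass, and the mean level of the list overlapped between the groups. The T and NK cell list had 1 rise in 16, Thy1, which fibroblasts also express, with Cd3e at -0.29 and Cd3d at 0.20, and 2 rises without KR-N+/- replicate 5 or KR-N-/- replicate 3.

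Of 27 skeletal muscle genes 3 rose and 3 fell, with Tnnc1, the slow-muscle troponin C, at 1.17 and the creatine kinase gene Ckm at -0.91, and with list means of 7.14 to 7.92 in KR-N-/- and 7.33 to 7.93 in KR-N+/-. Myh8, of the same list, rose by 0.86 (adjusted p = 0.00157), with 0.35 on its other probe, which did not pass. The muscle falls numbered 1 without KR-N+/- replicate 1 or 4 or KR-N-/- replicate 1 or 2, 5 without KR-N-/- replicate 4 and 0 without both KR-N+/- arrays of extreme intensity. Of 10 measured adipocyte and sebaceous genes 2 fell and 0 rose, and the mean level of the list was lower in KR-N-/- without overlap (6.37 to 6.57 against 6.71 to 7.03). Cidea and Scd1, 2 lipid genes of this list, fell by 1.45 and 1.00, while Pparg gave 0.29. The pigment cell genes Pmel and Dct were higher, Pmel at least 1.36-fold (adjusted p = 0.00273; detected on 0 of 5 KR-N+/- arrays) and Dct by 0.44, and in 8 of the 9 fits without a single KR array only 1 member of their list rose. Of 37 genes of redox and xenobiotic defence 4 rose and 4 fell (2 fell without KR-N+/- replicate 1, KR-N-/- replicate 1 or KR-N-/- replicate 4). Gpx3, a secreted glutathione peroxidase, rose by 1.06, and the cytochrome P450 gene Cyp2b10, detected on 0 of 5 KR-N+/- arrays, was at least 1.72-fold higher in KR-N-/- (adjusted p = 0.0135). Of 25 glycolysis and hypoxia genes 3 rose and 2 fell, with P4ha1, a collagen prolyl hydroxylase subunit, up by 0.93, and Pfkfb4 and Aldoc, 2 glycolytic genes, down by 0.87 and 0.75. The other probe of Pfkfb4 gave -0.04. The glycolysis rises numbered 1 without KR-N-/- replicate 2, and the falls 1 without KR-N+/- replicate 5 or KR-N-/- replicate 1, 2 or 4. Of 23 measured p53 targets 3 rose and 0 fell, or 13.0% that rose against 9.62% of all tested genes. Ddit4, Dram1 and Bbc3 rose by 1.06, 0.74 and 0.61, and Mdm2 gave 0.19; the other probes of Bbc3 gave 0.02 and 0.15. The listed genes of salivary gland (4 measured), mast cells (8) and dendritic cells (6) had no member that passed, nor did the single measured B and plasma cell gene, Xbp1 (-0.25). The salivary, mast and dendritic members with the largest differences were Lpo, Cma1 and Fscn1 (adjusted p = 0.681, 0.303 and 0.126). Among 6 red cell genes Car2 fell by 0.74. The shares that passed were 22.2% for skeletal muscle, 20% for adipocyte and sebaceous genes and 21.6% for redox defence. They were 20% for glycolysis and hypoxia and 16.7% for red cell genes, against 16.2% of all tested genes.

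The same genotypes were compared in the KHR tumours, which use other arrays. There 10 of 9732 genes (0.103%) passed between KHR-N-/- and KHR-N+/-, and 792 had an unadjusted p under 0.05. All 10 also passed in KR with the same direction, among them Aldh1a3 (-1.74 in KR, -1.14 in KHR), Slitrk5 (2.12 and 1.63), Wnt3a (1.21 and 1.07), Kcnh1 (1.44 and 0.87) and Col17a1 (0.88 and 0.97). The array labelled KHR-N+/- replicate 3 read 5.68 for Notch1, inside the KHR-N-/- range of 5.40 to 5.80, and without it 46 genes passed in KHR. Of the 1581 genes that passed in KR, 1396 (88.3%) had the same sign in KHR, against 68.7% of all tested genes, and 1388 (87.8%) without that array. This share depended on the fit, with 1097 (69.4%) under median scaling and 706 (44.7%) with the fibroblast list mean as a covariate. The 188 KR genes with a log2 difference of at least 1 were chosen for their size in KR, and their median size was 1.25 in KR and 0.69 in KHR (0.76 without that array), with 182 of 188 in the same direction. With the fibroblast covariate 100 of the 188 had the same direction, and their median in KHR, signed by the direction in KR, was 0.02.

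No gene passed the test of the difference between the effects in KR and in KHR tumours, with 793 at an unadjusted p under 0.05 and a smallest adjusted p of 0.334 (0.513 without the array labelled KHR-N+/- replicate 3). Prmt1 gave 1.61 in KR and -0.08 in KHR, a difference of 1.69 (SE 0.40, adjusted p = 0.334). Lig1 gave 0.84 and -0.05, a difference of 0.88 (SE 0.23, adjusted p = 0.334), and Kif11 0.80 and -0.12, a difference of 0.92 (SE 0.24, adjusted p = 0.334). The medians of the mitosis list were 0.57 in KR and 0.00 in KHR, and those of the DNA replication list 0.33 and -0.09. For Ppbp, -4.17 in KR stood against 0.40 in KHR, a difference of -4.57 (SE 1.43, adjusted p = 0.376). The fibroblast list had a median of 0.65 in both types and the basal keratinocyte list 0.59 and 0.41.

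**Figure D5:**
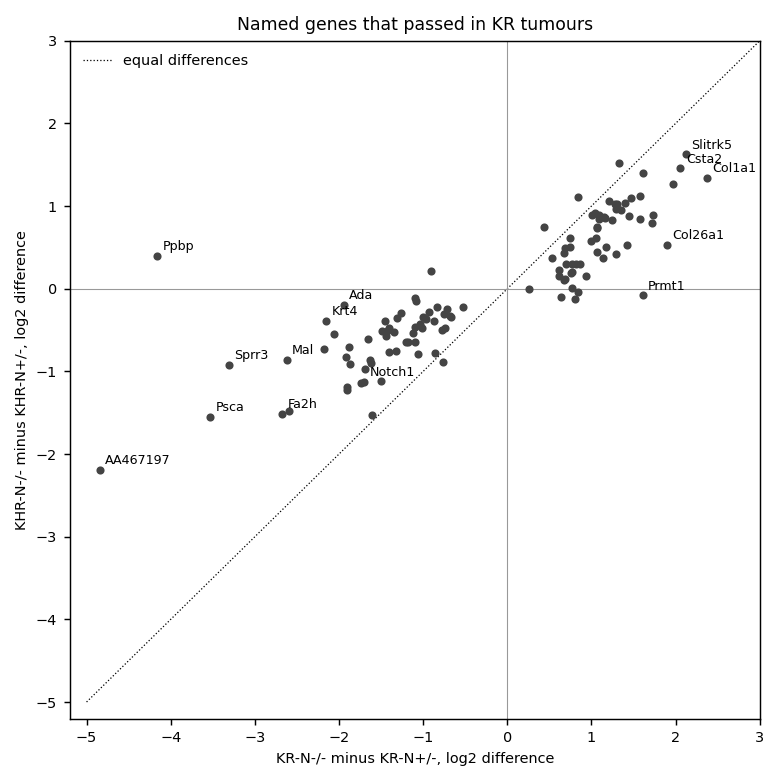
Log2 difference between Notch1-null and heterozygous tumours in KR (horizontal axis) and KHR (vertical axis) for the named genes that passed in KR, 1 point per gene. The dotted line marks equal differences; most points have the same sign on both axes and lie nearer to 0 in KHR, and Ppbp stands at -4.17 in KR and 0.40 in KHR.

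The 250 bases before the annotated starts of the genes were read from RefSeq (GRCm38.p6) to show what the called genes hold there. A window was found for 7888 of the 9732 tested genes and for 92 of the 132 named genes. Some genes had more than 1 window, and a gene was counted where any of its windows held the letters. The sequence GTGGGAA, bound by RBPJ, was searched on both strands. Among genes with a window it was in 6.74% of those that fell by at least 1 (6 of 89) and in 6.35% of all tested (501 of 7888). The AP-1 sequence TGANTCA reads alike on both strands and was counted apart from GTGGGAA. It was in 22.5% of the genes that fell by at least 1 (20 of 89) and in 9.48% of all genes that fell (49 of 517). It was in 9.62% of those that rose by at least 1 (5 of 52), in 6.03% of all that rose (46 of 763) and in 6.58% of all tested genes (519 of 7888). Counted by window and not by gene, it was in 6.75% of the 32851 windows used. The Grainyhead sequence AACCGGTT was in 0.254% of the tested genes with a window and in 0 of the 89. These are descriptions of letters in a window, chosen after the falls were seen, and carry no test. The window of AA467197 is given whole since this gene fell most, with the AP-1 letters in capitals 73 bases before the start, on the plus strand of chr2:122637637-122637886.
AA467197: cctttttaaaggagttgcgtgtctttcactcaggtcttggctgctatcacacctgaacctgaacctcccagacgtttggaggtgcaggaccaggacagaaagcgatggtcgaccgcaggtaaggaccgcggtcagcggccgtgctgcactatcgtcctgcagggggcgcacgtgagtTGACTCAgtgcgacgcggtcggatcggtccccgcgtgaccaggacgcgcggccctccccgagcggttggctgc

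The stretches around the AP-1 letters, in capitals, of 6 other genes that fell by at least 1, from the keratin, cornified envelope, serpin and interleukin lists, are shown to compare their flanks. Each is read 5′ to 3′ on the strand of its gene. They lie at chr11:100120593-100120623 (minus strand) in Krt13, chr14:103513293-103513323 (plus) in Scel, chr3:92364978-92365008 (plus) in Sprr2f, chr1:107362226-107362256 (plus) in Serpinb11, chr5:90768302-90768332 (plus) in Ppbp and chr2:24336707-24336737 (plus) in Il1rn. The start lies 34, 36, 197, 76, 204 and 141 bases after the first AP-1 base in the same order.
Krt13: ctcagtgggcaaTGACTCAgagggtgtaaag
Scel: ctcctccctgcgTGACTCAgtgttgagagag
Sprr2f: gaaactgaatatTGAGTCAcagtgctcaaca
Serpinb11: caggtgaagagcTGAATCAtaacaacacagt
Ppbp: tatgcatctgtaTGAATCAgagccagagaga
Il1rn: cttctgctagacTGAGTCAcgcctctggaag
On the strand of the gene the central base is C in Krt13 and Scel, G in Sprr2f and Il1rn and A in Serpinb11 and Ppbp. The forms with C and with G are the same letters read on opposite strands, and the form with A differs from both. Krt13 fell by 1.48 (SE 0.32, adjusted p = 0.00398).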

How the data were processed

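The deposited scanner table holds, for each probe and array, a mean bead intensity, a bead number and a detection p-value, per the file headers, and 23 columns of bead standard errors were not used. The authors' processed intensity values, deposited separately, were used as an alternative alone. The submitters' processing notes name GenomeStudio and Partek, without their versions or what each did. The bead number per probe, another column of the deposited table, averaged 29.2 to 40.4 per array in the KR groups.

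From the deposited intensities, values were corrected for background with limma's nec (normexp, offset 16, controls placed by the detection p-values), put on the log2 scale and quantile-normalized (limma 3.58.1 in R 4.3.3). Of 25697 probes, 13831 had a detection p-value under 0.05 on 4 or more arrays, 13030 of them with a gene symbol. Each gene was represented by its brightest such probe (9732 genes), and 6861 other named genes were not tested. Symbols come from the platform annotation. A linear model with 5 groups was fitted to all 23 arrays (lmFit and eBayes, 18 residual degrees of freedom). Adjusted p-values are limma's, by Benjamini-Hochberg over all genes, and SE is the moderated standard error. On simulated data the fit was tested with known changes. Where no array of the dimmer group detected a gene, the fold is a bound against the lowest signal among detected probes. The number of arrays limits the precision. Slides are not given in the files.

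The text names Notch1, the 15 largest rises and falls among passing genes (names of the Rik, Gm and LOC kind passed over), all measured Notch receptors, ligands and targets, and the 3 largest passing members of each other list, or the largest where none passed. Further members of the 46 lists, and Krt13 with its promoter, were named after their values were seen. The members and lists were chosen with earlier results of these data known. Replicate numbers did not pair the tumours (correlations of deviations of same-numbered arrays from -0.12 to 0.25). Alternatives covered background correction, scaling, filters, probe choice, groups, blocks, covariates and left-out arrays. Promoter letters were counted with Python 3.11.15, and figures were drawn with matplotlib 3.10.9.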

Additional observations from a re-analysis of the deposited data

Results flagged for a closer look

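In 15 of 264 sets formed by 1 named gene in 1 KR group, and in 6 of 92 sets formed by 1 gene list in 1 KR group, a single array lay far from the others of its group by Dixon's test; chance gives about 1 in 20 such sets. Among KR-N-/- arrays, replicate 2 stood apart for Alox12 (8.25), P4ha1 (6.07), Serpinb1a (5.64) and Tek (5.06), and for the mean level of the retinoid list (6.20), the interferon response list (5.08) and the MHC presentation list (5.79). KR-N-/- replicate 1 stood apart for Il1rn (8.92), Prmt1 (9.73) and the endothelial list (6.42), replicate 3 for Cdkn1a (9.72) and Pfkfb4 (7.71), and replicate 4 for Lpo (4.12) and S100a7a (6.09).

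Among KR-N+/- arrays, replicate 1 stood apart for Fscn1 (7.74), replicate 3 for Col26a1 (4.65) and Serpinb1a (6.12), replicate 4 for Slitrk5 (6.09) and the adipocyte and sebaceous list (7.03), and replicate 5 for S100a7a (9.10) and the surface protease list (8.96). For Alox12, Cdkn1a and Serpinb1a the KR-N-/- groups were narrow, so the gap was small in log2 units. The cause was not tested for any of these arrays.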

How the results depend on the processing

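The 1581 calls became 3 (1 higher, 2 lower, 33.3% higher against 59.2%) with median scaling, 18 (3 higher, 15 lower, 16.7% higher) with the fibroblast list as a covariate and 958 without the KR-N+/- arrays of lowest and highest intensity; the last 2 alternatives were chosen after seeing the data, as were the column run term, quantile normalization before log2 and the fit without KHR-N+/- replicate 3. Left-out KR arrays gave 897 to 1368 calls, and the other alternatives 1259 to 1993, with 1993 under the replicate block. The 188 calls with a log2 difference of at least 1 became 3 with median scaling, 13 with the fibroblast covariate, 68 without background correction, 100 with an offset of 50 and 291 on the authors' processed values, and ranged from 152 to 195 with left-out arrays. The difference between KR and KHR gave 0 calls in each alternative except the replicate block, which gave 2. Notch1 ranged from -2.03 to -1.05, passing except with median scaling (-1.58, adjusted p = 0.173), and from -1.87 to -1.56 with left-out arrays; the replicate block gave -1.68. The replicate numbers do not pair the tumours. The calls under this block held 1536 of the 1581, and 233 had a log2 difference of at least 1. Robo4 changed sign to -0.0585 with the fibroblast covariate. Of the 118 named genes that passed, 83 also passed in every left-out fit and every alternative outside median scaling and the fibroblast covariate. For probes near background, low signal limits what can be measured. Apart from the narrower sets of arrays and genes, the cause of these shifts was not tested.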
